A study of Homo sapiens with 8 samples.

Results

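Semaphorins, plexins and neuropilins were read as one ligand and receptor system in DU145 cells, a line derived from human prostate cancer. The genes were taken by symbol: 20 semaphorins, 9 plexins and 2 neuropilins, 31 of the 23391 genes in the count table. RNA sequencing covered 4 groups with 2 libraries each. DU145-pc3.1 cells carried the empty pcDNA3.1 vector and served as control. DU145-Esrrb cells carried an expression vector for Esrrb, estrogen related receptor beta, a nuclear receptor. The other groups, DU145-pc3.1+DY131 and DU145-Esrrb+DY131, were these cells incubated with 3 µM DY131, a small-molecule ligand of estrogen related receptors. Cells of all groups were in medium with charcoal-stripped serum before RNA was collected. The untreated groups received vehicle. The time of exposure was not given in the sources used here. Both cell populations were selected with Zeocine at 150 µg/ml for 3 weeks, and each is a pool of stably transfected cells from one parental line, so an effect of Esrrb here is also a difference between 2 pools.

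Semaphorins are secreted or membrane-bound proteins first known as guidance cues for growing axons, and plexins are their main receptors. Class 3 semaphorins are secreted, and most of them need a neuropilin, which holds the ligand and pairs with a plexin of the A type. Semaphorins of classes 4 to 7 mostly bind plexins without a neuropilin, and inside the cell plexins act on small GTPases, the cytoskeleton and adhesion. In epithelial tumours the same proteins are studied in migration, invasion and vessel growth, and SEMA3B and SEMA3F are known as candidate tumour suppressors.

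The libraries held 7858743 to 11551690 counted reads. ESRRB had 99 to 143 reads in each DU145-Esrrb library, with or without DY131, and 0 to 3 in each library of the empty vector pool. In cpm (reads per 1e6 counted reads after TMM scaling) ESRRB was higher with DY131. It read 8.82 and 9.10 cpm in DU145-Esrrb and 13.7 and 16.2 cpm in DU145-Esrrb+DY131. The epithelial label fitted the counts, with all 6 epithelial markers tested and a summed level of 3770 to 4580 cpm in every library. CDH1, the epithelial cadherin, was nonetheless lower in DU145-Esrrb+DY131 than in DU145-pc3.1 by -1.25 on the log2 scale (SE 0.12, adjusted p = 4.53e-07). Of the prostate luminal markers, KLK2 and KLK3 had 0 reads in all libraries. Markers of fibroblasts summed to 3.13 to 6.16 cpm and those of endothelial cells to 1.58 to 2.82 cpm. Those of blood cells and neurons were highest in DU145-Esrrb+DY131, at 91.3 to 94.3 cpm and 354 to 362 cpm, against 61.1 to 80.0 cpm and 232 to 266 cpm elsewhere, and these sums were nearly all CD68 (605 to 914 reads) and TUBB3 (2254 to 3087 reads). CD3E and GAP43 had 0 reads in every library. Of the other markers in these lists, LYZ was lower with DY131 in DU145-Esrrb cells by -2.18 (SE 0.59, adjusted p = 0.00517), with 2 and 3 reads left, and SNAP25 by -1.01 (SE 0.39, adjusted p = 0.0340). The part of these differences in the results was not tested.

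The DU145-Esrrb+DY131 libraries stood apart in another way. The share of a transcript's 50-base windows that cross an exon junction ran against the log2 fold change of DY131 in DU145-Esrrb cells, with a Spearman rho of -0.375 across 13606 genes of the same libraries, against 0.0112 in DU145-pc3.1 cells. For Esrrb in untreated cells rho was -0.0378, and for Esrrb under DY131 it was -0.476. For DU145-Esrrb+DY131 against untreated control it was -0.381, and for the difference of the DY131 effects between the pools -0.460. The genes described here had a median share of 21.9%, against 14.4% for all tested genes. Corrected values are given beside some of the results. With DY131 in DU145-Esrrb cells, the correction moved the log2 fold change of SEMA6C from -1.33 to -1.15. It moved that of SEMA4G from -0.98 to -0.80 and that of PLXND1 from -0.86 to -0.67.

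SEMA3F is the gene on which the comparison of Esrrb and DY131 turns, and the sequence before its start site is shown for that reason. On GRCh38 (GENCODE 29), SEMA3F lies on the plus strand at chr3:50155045-50189075 with 19 exons in its listed transcript, and SEMA3B at chr3:50267558-50277546, on the same strand, 78.5 kb further on. The 250 bases before the RefSeq start of SEMA3F, at chr3:50154808-50155057, are given 5′ to 3′ on the gene's strand from the RefSeq table for GRCh38.p14, with GGGCGG and its reverse complement CCGCCC in capitals.
SEMA3F: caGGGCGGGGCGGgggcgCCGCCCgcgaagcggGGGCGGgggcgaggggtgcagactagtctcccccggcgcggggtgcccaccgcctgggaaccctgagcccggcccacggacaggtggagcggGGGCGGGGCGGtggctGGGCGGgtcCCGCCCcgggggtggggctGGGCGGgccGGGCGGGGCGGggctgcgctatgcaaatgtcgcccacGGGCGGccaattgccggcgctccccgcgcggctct
This window was 82% G and C, where the median over all promoters was 58%, and held 12 of these GC boxes, overlapping ones counted. Promoters were at hand for 27 of the 31 genes, in windows of 300 bases that include the first bases of the transcript. Those of SEMA3A, SEMA6A, SEMA6B and NRP1 were missing. GGGCGG, searched on both strands, was in 19 of the 27 (70.4%), and in 45% of all 35116 promoters. The 27 were also richer in G and C, with a median of 64.4% in the 250 bases before the start, against 58% over all promoters. The part of this in the share with GGGCGG was not tested. The estrogen related receptor element TCAAGGTCA was in 0 of the 27 and in 0.353% of all, and the shorter AAGGTCA, which is part of it, was in 0 of the 27 and in 3.92% of all. The shorter core AGGTCA, which lies within both, was in 3 of the 27 (11.1%; SEMA3E, SEMA5A and SEMA5B), and in 13.8% of all. These are matches of letters in one window per gene, and the start used can lie inside the gene, as for SEMA3B, whose window ends at position 50273118.

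The genes differed widely in level. Of the 31 genes, 23 reached 1 cpm in at least 2 libraries and so were among the 13856 genes tested. Levels between genes are compared as cpm per kilobase of the listed transcript. In DU145-pc3.1, the ligand sum was led by SEMA4B at 186 cpm per kilobase, followed by SEMA3C at 44.3 and SEMA7A at 21.3. SEMA4G, SEMA4F and SEMA4C lay close together at 11.3, 10.9 and 10.3, an order that turned when the longest transcript of each gene set the length (2.29%, 2.76% and 3.41% of the ligand level). SEMA3F stood at 1.85. Among the receptors PLXNB2 led the plexins at 30.8, ahead of PLXNA1 at 6.77, and NRP1 at 39.3 exceeded NRP2 at 0.52. The listed transcript of NRP1 has 2213 bases and its longest 5882, on which NRP1 still held 98.5% of the neuropilin level.

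SEMA4B and SEMA3C carried most of the ligand level in every group, and their balance moved with DY131. SEMA4B made up 60.7% to 62.5% of the summed ligand level per kilobase in DU145-pc3.1 and 61.1% to 64.3% in DU145-Esrrb. With DY131 it made up 49% to 49.3% in DU145-pc3.1 and 48.8% to 50.8% in DU145-Esrrb. SEMA3C went from 14.6% to 14.9% in DU145-pc3.1 to 26.9% to 27.8% with DY131, and from 11.4% to 13% in DU145-Esrrb to 23.1% to 23.3%. The ranges of treated and untreated libraries did not overlap for either ligand. PLXNB2 held 68.6% to 68.8% of the plexin level in DU145-pc3.1, 65.5% in DU145-Esrrb, 58.7% to 60.4% in DU145-pc3.1+DY131 and 56.4% to 56.9% in DU145-Esrrb+DY131. PLXNA1 held 14.8% to 15.3%, 17.3%, 21.4% to 23.2% and 25.6% to 26.1% in the same order. These shares carry no junction correction. The table does not state which transcripts each count covers, so a gene counted over a longer transcript has a lower true value per kilobase.

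**Figure D1:**
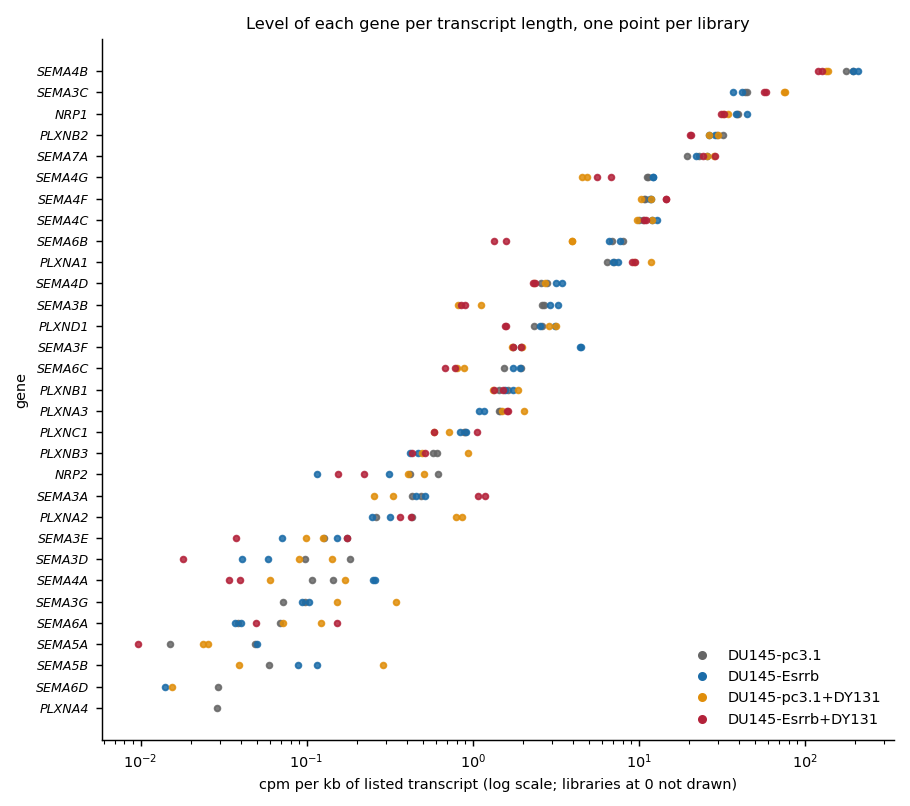
Level of each gene per kilobase of its listed transcript (cpm per kilobase, log axis) in the 8 libraries, one point per library, coloured by group. SEMA4B sits highest in every library, and libraries at 0 are not drawn.

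The 8 genes left untested had at most 17 reads in any library and 1 to 45 reads in all 8 together. They were SEMA3D, SEMA3G, SEMA4A, SEMA5A, SEMA5B, SEMA6A, SEMA6D and PLXNA4. SEMA3G, a class 3 ligand, had 4 to 6 reads in the untreated libraries, 8 and 17 in DU145-pc3.1+DY131, and 0 in both libraries of DU145-Esrrb+DY131. SEMA5B, a ligand of class 5, had 0 to 6, then 2 and 14, and 0 in both. Class 5 thus had no tested gene. PLXNA4 had a single read in one library.

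A gene was called when its adjusted p was under 0.05 and its log2 fold change at least 1 in size, and was said to rise or fall when the adjusted p alone passed. By this rule 9 of the 23 tested genes were called in at least 1 of 6 comparisons, 6 ligands, 2 plexins and NRP2, where 18.9% of all tested genes were called in at least 1. The other 14 were called in none. The 6 comparisons share libraries, so their values are set side by side.

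Esrrb in untreated cells changed 1 of these genes. SEMA3F, a secreted ligand that signals through NRP2 and plexins of the A type, read 7.44 and 6.60 cpm in DU145-pc3.1 and 17.0 and 16.9 cpm in DU145-Esrrb. With DY131 it read 6.54 and 7.53 cpm in DU145-pc3.1 and 6.64 and 7.45 cpm in DU145-Esrrb. Only the 2 untreated DU145-Esrrb libraries were high, and the other 6 overlapped one another. In bulk RNA such a difference cannot be told apart as more cells with the transcript or more transcript per cell. SEMA3F was 2.42-fold higher in DU145-Esrrb than in DU145-pc3.1, a log2 fold change of 1.27 (SE 0.14, adjusted p = 8.35e-05). It was the 1 gene called up of 23, with 0.180% of all tested genes called up, 0.397% called down and 0.577% called in either direction. By adjusted p alone SEMA3F was again the only one, where 1.68% of all tested genes rose and 2.49% fell (4.17% in either direction). That count was not stable, since 2 rose and 3 fell when either library of DU145-pc3.1+DY131, a group outside this comparison, was left out of the fit. The 2 libraries of that group differed most from each other, with a chi-square per degree of freedom of 7.51 against 1.31 to 2.70 in the other groups. Another 7 of the 23 had an unadjusted p under 0.05 and none of them passed the adjusted threshold, in edgeR, DESeq2 or edgeR's exact test.

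DY131 did the opposite in DU145-Esrrb cells, where SEMA3F fell by 1.26 on the log2 scale (SE 0.15, adjusted p = 3.95e-06), a 2.39-fold lower level. In DU145-pc3.1 cells the log2 fold change was 0.00 (SE 0.17, adjusted p = 0.989). The DY131 effect differed between the pools by -1.26 (SE 0.23, adjusted p = 6.02e-04). DU145-Esrrb+DY131 stood at 7.05 cpm ± 0.573 (SD, n = 2) and DU145-pc3.1 at 7.02 cpm ± 0.593 (SD, n = 2), a log2 difference of 0.01 (SE 0.17, adjusted p = 0.952). Corrected for the junction share, the fall was -1.10 and the difference between pools -1.09.

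No other gene tested here passed the thresholds in both steps of this rise and fall. SEMA3F was the only one of 23 called up with Esrrb and called down with DY131 in DU145-Esrrb cells, a pattern that 10 of all 13856 tested genes had (0.0722%). With the adjusted p alone it was again the 1 of 23, and 107 of all tested genes (0.772%). The rise and fall of SEMA3F were known from these data when the genes were chosen, so these shares do not test the family. The same signs in the 2 steps were seen in SEMA3B, SEMA4B, SEMA4C, SEMA4D, SEMA4G, SEMA6C, PLXNB1, PLXND1 and NRP1. For Esrrb their log2 fold changes were 0.08 to 0.31 and did not pass the test. The share of all tested genes with these signs was not counted. SEMA4D had log2 fold changes of 0.31 with Esrrb (SE 0.13, adjusted p = 0.251) and -0.50 with DY131 in DU145-Esrrb cells (SE 0.14, adjusted p = 0.00739). SEMA4B had 0.13 (adjusted p = 0.295) and -0.72 (adjusted p = 1.30e-07), and SEMA4C 0.28 (adjusted p = 0.143) and -0.19 (adjusted p = 0.108). The 2 comparisons share the untreated DU145-Esrrb libraries. NRP2, the neuropilin that binds SEMA3F, passed the test in neither of them. Its level was 1.81 and 1.23 cpm in DU145-pc3.1, 0.339 and 0.919 cpm in DU145-Esrrb, 1.49 and 1.19 cpm in DU145-pc3.1+DY131 and 0.651 and 0.452 cpm in DU145-Esrrb+DY131. Every library of DU145-Esrrb cells was below every library of DU145-pc3.1 cells. The log2 fold change with Esrrb was -1.27 (SE 0.48, adjusted p = 0.172) in untreated cells and -1.29 (SE 0.55, adjusted p = 0.0644) under DY131, and that of DY131 in DU145-Esrrb cells was -0.18, or 0.05 with the junction correction. Against untreated control, DU145-Esrrb+DY131 had -1.45 (SE 0.54, adjusted p = 0.0287), a call that was lost in DESeq2 (-1.47, adjusted p = 0.135) and with the junction correction (-1.21, adjusted p = 0.0702). It was also lost without the first library of DU145-pc3.1 (-1.16, adjusted p = 0.158) or either library of DU145-Esrrb+DY131 (-1.72 and -1.20, adjusted p = 0.0688 and 0.174), while the direction held.

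**Figure D2:**
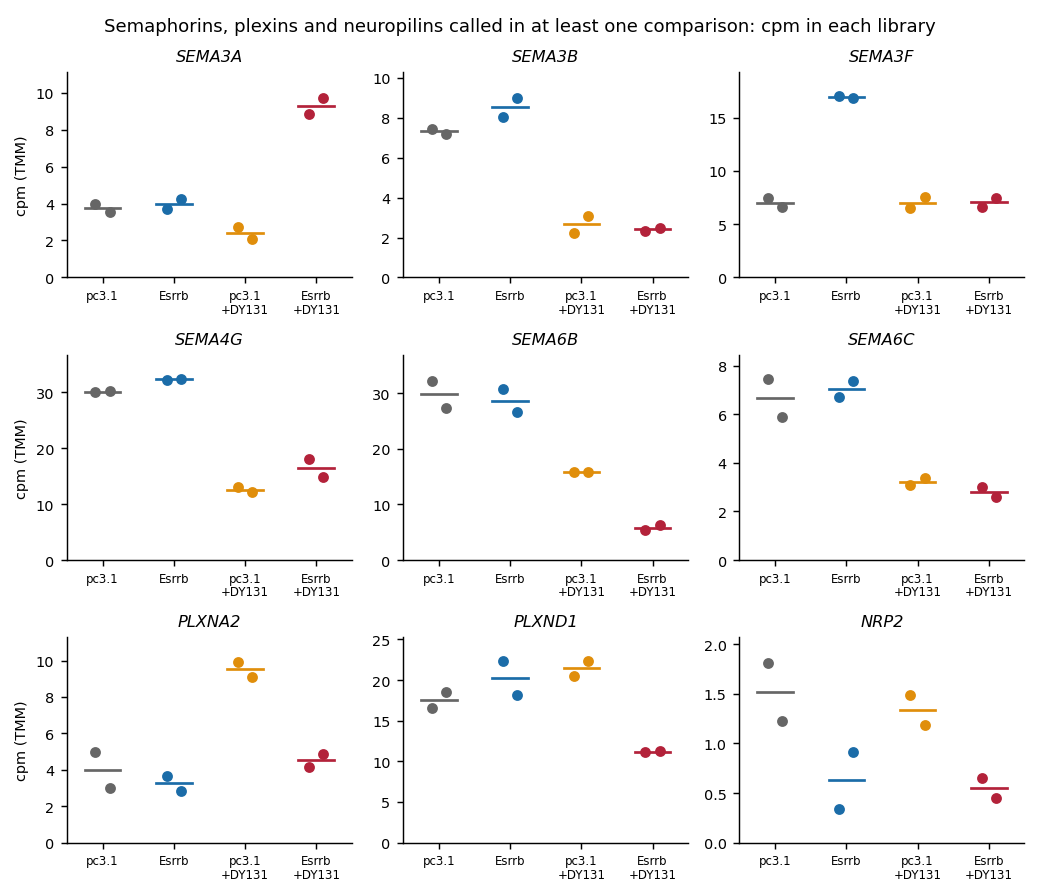
Level in cpm of each of the 9 called genes in the 8 libraries, one point per library and one panel per gene, with a horizontal line at each group mean. SEMA3F is high only in the 2 untreated DU145-Esrrb libraries, at 17.0 and 16.9 cpm.

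The other class 3 ligands had patterns of their own. SEMA3A, a repellent that acts through NRP1, read 4 and 3.52 cpm in DU145-pc3.1, 3.73 and 4.23 cpm in DU145-Esrrb, 2.71 and 2.08 cpm in DU145-pc3.1+DY131 and 8.86 and 9.71 cpm in DU145-Esrrb+DY131. The DU145-Esrrb+DY131 libraries were above all others and the DU145-pc3.1+DY131 libraries below all others. With DY131 SEMA3A rose by 1.23 (SE 0.20, adjusted p = 7.03e-05) in DU145-Esrrb cells, while its log2 fold change in DU145-pc3.1 cells was -0.64 (SE 0.25, adjusted p = 0.0533). The difference between the pools was 1.87 (SE 0.32, adjusted p = 3.88e-04), opposite in sign to that of SEMA3F. Esrrb alone left SEMA3A with a log2 fold change of 0.08 (adjusted p = 0.906), and under DY131 the DU145-Esrrb cells were higher by 1.95 (SE 0.22, adjusted p = 3.48e-06).

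SEMA3B, next to SEMA3F on chromosome 3 and like it a neuropilin ligand, fell with DY131 in both pools. It read 7.44 and 7.21 cpm in DU145-pc3.1, 8.06 and 9.01 cpm in DU145-Esrrb, 2.24 and 3.07 cpm in DU145-pc3.1+DY131 and 2.34 and 2.48 cpm in DU145-Esrrb+DY131. All 4 treated libraries were below all 4 untreated ones. The log2 fold change was -1.46 (SE 0.21, adjusted p = 7.50e-05) in DU145-pc3.1 and -1.81 (SE 0.22, adjusted p = 5.33e-06) in DU145-Esrrb cells. The difference of the 2 effects was -0.35 (SE 0.33, adjusted p = 0.444), and Esrrb in untreated cells gave 0.22 (adjusted p = 0.571). With the junction correction the fall in DU145-Esrrb cells was -1.51 and the difference of the effects -0.04.

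SEMA3C, the main class 3 ligand of these cells, rose with DY131 in both pools, by less than the fold threshold. It read 234 and 225 cpm in DU145-pc3.1, 192 and 217 cpm in DU145-Esrrb, 390 and 393 cpm in DU145-pc3.1+DY131 and 295 and 300 cpm in DU145-Esrrb+DY131. Treated libraries were above untreated ones throughout, and DU145-pc3.1+DY131 was the highest group. The log2 fold change was 0.77 (SE 0.06, adjusted p = 3.45e-07) in DU145-pc3.1 and 0.54 (SE 0.06, adjusted p = 2.82e-06) in DU145-Esrrb cells. SEMA3E, a ligand of PLXND1, stayed near the limit of the count at 0.226 to 1.06 cpm and passed the test in none of the 6 comparisons.

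In class 4, whose members are mostly membrane-bound and bind B-type plexins, 2 genes fell with DY131 in both pools. SEMA4G read 30.0 and 30.3 cpm in DU145-pc3.1, 32.3 and 32.4 cpm in DU145-Esrrb, 13 and 12.1 cpm in DU145-pc3.1+DY131 and 18.1 and 14.9 cpm in DU145-Esrrb+DY131. Treated and untreated libraries did not overlap. The log2 fold change was -1.26 (SE 0.11, adjusted p = 9.24e-07) in DU145-pc3.1 and -0.98 (SE 0.11, adjusted p = 2.20e-06) in DU145-Esrrb cells, where it lay just short of the fold threshold, and the difference of the effects was 0.29 (adjusted p = 0.183), or 0.48 (adjusted p = 0.0416) with the junction correction. Exons of SEMA4G overlap those of MRPL43 on the other strand, and whether reads were counted by strand is not given in the sources used here.

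SEMA4B, the most abundant ligand, read 732 and 672 cpm in DU145-pc3.1, 794 and 743 cpm in DU145-Esrrb, 521 and 505 cpm in DU145-pc3.1+DY131 and 455 and 477 cpm in DU145-Esrrb+DY131. All treated libraries were below all untreated ones. It fell by 0.45 on the log2 scale in DU145-pc3.1 (adjusted p = 4.16e-05) and by 0.72 in DU145-Esrrb cells (adjusted p = 1.30e-07). The remaining class 4 genes moved little. SEMA4F rose by 0.30 (adjusted p = 0.00384) with DY131 in DU145-Esrrb cells, where SEMA4D, a ligand of PLXNB1, fell. SEMA4C stayed between 34.6 and 45.9 cpm in all libraries.

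Both tested class 6 ligands, membrane proteins that bind A-type plexins, fell with DY131 in both pools. SEMA6B read 32.2 and 27.4 cpm in DU145-pc3.1, 30.7 and 26.6 cpm in DU145-Esrrb, 15.8 and 15.8 cpm in DU145-pc3.1+DY131 and 5.34 and 6.32 cpm in DU145-Esrrb+DY131. The groups stepped down without overlap from untreated to DU145-pc3.1+DY131 to DU145-Esrrb+DY131. The log2 fold change was -0.92 (SE 0.12, adjusted p = 3.13e-05) in DU145-pc3.1 and -2.29 (SE 0.15, adjusted p = 8.84e-09) in DU145-Esrrb cells, a 4.88-fold lower level. The difference of the effects was -1.37 (SE 0.20, adjusted p = 1.21e-04), and Esrrb in untreated cells gave -0.05.

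SEMA6C read 7.44 and 5.89 cpm in DU145-pc3.1, 6.70 and 7.35 cpm in DU145-Esrrb, 3.08 and 3.37 cpm in DU145-pc3.1+DY131 and 3.00 and 2.60 cpm in DU145-Esrrb+DY131. Treated and untreated libraries did not overlap. It fell by 1.04 (SE 0.21, adjusted p = 0.00124) in DU145-pc3.1 and by 1.33 (SE 0.23, adjusted p = 1.29e-04) in DU145-Esrrb cells. The first value passed the fold threshold narrowly. It was -0.86 without the first library of DU145-pc3.1 and -0.97 without the first library of DU145-pc3.1+DY131. With the correction for length and GC it was -0.95. SEMA7A, a ligand of PLXNC1 that is held to the membrane by a lipid anchor, had a log2 fold change of 0.34 (adjusted p = 0.0163) with DY131 in DU145-pc3.1 cells and of 0.14 in DU145-Esrrb cells, or 0.37 (adjusted p = 0.00671) with the junction correction.

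Counted over the whole family, DY131 in DU145-pc3.1 cells called 1 gene up and 3 down of 23, where 1.02% of all tested genes were called up and 3.16% down (4.19% in either direction). The gene called up was PLXNA2 and those called down were SEMA3B, SEMA4G and SEMA6C. In DU145-Esrrb cells 1 was called up, SEMA3A, and 4 down, SEMA3B, SEMA3F, SEMA6B and SEMA6C, where 2.98% of all were called up and 9.04% down (12.0% in either direction). With the adjusted p alone, 4 rose and 6 fell in DU145-pc3.1, where 18.9% of all tested genes rose and 18.5% fell (37.4% in either direction). In DU145-Esrrb cells 5 rose and 10 fell, where 29.2% of all rose and 29.5% fell (58.7% in either direction). The median log2 fold change over the 23 was -0.08 in DU145-pc3.1 and -0.19 in DU145-Esrrb cells, against -0.00 over all tested genes in both, and with the junction correction the second was -0.10.

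The DY131 comparisons in the 2 pools share no library. Of the 23 genes, 8 passed the adjusted p in the same direction in both, which 23.5% of all tested genes did. SEMA3C and PLXNA1 rose in both, and SEMA3B, SEMA4B, SEMA4G, SEMA6B, SEMA6C and NRP1 fell in both. Of all tested genes, 11.9% rose in both and 11.6% fell in both. In DESeq2, NRP1 did not pass the adjusted p in DU145-pc3.1 cells. None of the 23 passed in opposite directions, a pattern that 3.25% of all tested genes had. SEMA3B and SEMA6C were called in both pools, SEMA6C narrowly in DU145-pc3.1, which 2.11% of all tested genes were.

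**Figure D3:**
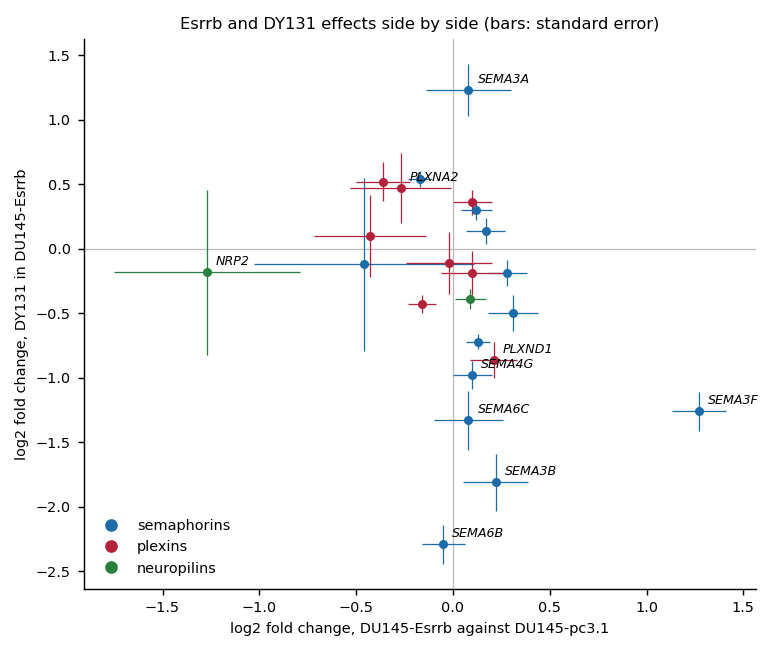
Log2 fold change of DY131 in DU145-Esrrb cells (vertical axis) against that of Esrrb in untreated cells (horizontal axis) for the 23 tested genes. Horizontal and vertical bars are standard errors, and colours mark semaphorins, plexins and neuropilins. SEMA3F lies apart at 1.27 and -1.26, and the axes share the untreated DU145-Esrrb libraries.

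Among the plexins, PLXNA2 and PLXND1 were called. PLXNA2, a receptor for class 6 semaphorins and, with neuropilins, for class 3, read 4.96 and 2.99 cpm in DU145-pc3.1, 3.65 and 2.85 cpm in DU145-Esrrb, 9.90 and 9.12 cpm in DU145-pc3.1+DY131 and 4.17 and 4.86 cpm in DU145-Esrrb+DY131. Only the DU145-pc3.1+DY131 libraries were high. It rose by 1.27 (SE 0.22, adjusted p = 3.24e-04) in DU145-pc3.1, or by 0.94 without that pool's second untreated library, and in DU145-Esrrb cells the log2 fold change was 0.47 (SE 0.27, adjusted p = 0.141). The difference of the effects was -0.79 (SE 0.35, adjusted p = 0.0915), but without the first library of DU145-pc3.1 it was -1.20 (adjusted p = 0.0256) and was called. Under DY131, DU145-Esrrb cells were lower than DU145-pc3.1 cells by -1.07 (SE 0.23, adjusted p = 0.00105), or by -0.97 without the first column of DU145-Esrrb+DY131.

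PLXND1, the receptor of SEMA3E, read 16.5 and 18.5 cpm in DU145-pc3.1, 22.3 and 18.1 cpm in DU145-Esrrb, 20.5 and 22.4 cpm in DU145-pc3.1+DY131 and 11.1 and 11.3 cpm in DU145-Esrrb+DY131. Both DU145-Esrrb+DY131 libraries were below all 6 others. Its log2 fold change with DY131 was 0.29 (adjusted p = 0.0793) in DU145-pc3.1 and -0.86 (SE 0.14, adjusted p = 8.83e-05) in DU145-Esrrb cells, a difference of -1.15 (SE 0.19, adjusted p = 3.07e-04). Corrected for the junction share the difference was -0.96 (adjusted p = 0.00195), under the fold threshold, and it was -0.98 without the first library of DU145-Esrrb.

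The abundant plexins moved less. PLXNA1, a coreceptor for class 3 semaphorins, rose by 0.65 (SE 0.09, adjusted p = 6.89e-05) in DU145-pc3.1 and by 0.36 (SE 0.10, adjusted p = 0.00439) in DU145-Esrrb cells. PLXNB2, a receptor of class 4 semaphorins, read 202 and 188 cpm in DU145-pc3.1, 181 and 168 cpm in DU145-Esrrb, 189 and 168 cpm in DU145-pc3.1+DY131 and 130 and 129 cpm in DU145-Esrrb+DY131, the lowest group. It fell by 0.43 (SE 0.07, adjusted p = 7.43e-05) with DY131 in DU145-Esrrb cells, but with the junction correction the value was -0.16 (adjusted p = 0.0569). PLXNA3 rose by 0.52 (SE 0.15, adjusted p = 0.00699) in the same comparison. PLXNB1, PLXNB3 and PLXNC1 passed the test in none of the 6 comparisons, and 17.6% of the windows of PLXNB3 overlap another gene.

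NRP1, the main neuropilin of these cells and a coreceptor for class 3 semaphorins and VEGF, read 86.8 and 87.4 cpm in DU145-pc3.1, 99.8 and 85.4 cpm in DU145-Esrrb, 71.5 and 76.5 cpm in DU145-pc3.1+DY131 and 72.2 and 69.2 cpm in DU145-Esrrb+DY131. Treated libraries were below untreated ones. It fell by 0.23 (SE 0.08, adjusted p = 0.0265) in DU145-pc3.1 and by 0.39 (SE 0.08, adjusted p = 5.71e-04) in DU145-Esrrb cells, the latter being -0.19 (adjusted p = 0.0527) with the junction correction.

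**Figure D4:**
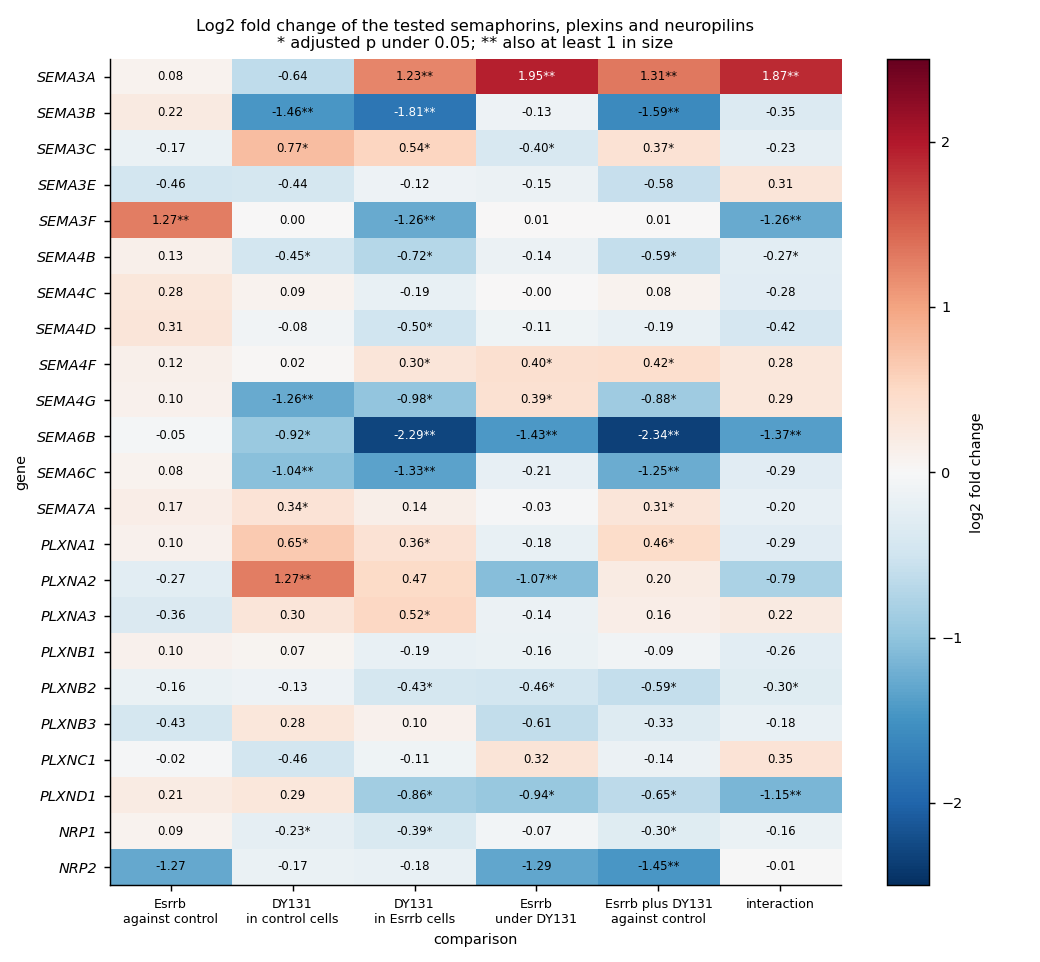
Log2 fold change of the 23 tested genes (rows, by role) in the 6 comparisons (columns), with 1 asterisk where the adjusted p was under 0.05 and 2 where the gene was called. SEMA6B reaches -2.29 with DY131 in DU145-Esrrb cells and -2.34 against untreated control.

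Esrrb under DY131 called 1 gene up, SEMA3A, and 2 down, SEMA6B and PLXNA2, where 2.15% of all tested genes were called up and 6.06% down (8.21% in either direction). By adjusted p alone 3 rose and 5 fell, where 25.1% of all rose and 25.3% fell (50.4% in either direction). SEMA6B was lower in DU145-Esrrb+DY131 than in DU145-pc3.1+DY131 by -1.43 (SE 0.17, adjusted p = 5.05e-06). DU145-Esrrb+DY131 against untreated control called 1 up, SEMA3A (1.31, SE 0.20, adjusted p = 4.44e-05), and 4 down, SEMA3B, SEMA6B, SEMA6C and NRP2, where 3.31% were called up and 9.52% down (12.8% in either direction). By adjusted p alone 5 rose and 9 fell, where 29.1% of all rose and 30.1% fell (59.3% in either direction). In that comparison SEMA6B was at -2.34 (SE 0.15, adjusted p = 5.99e-09). The difference of the DY131 effects between the pools was called for 1 up, SEMA3A, and 3 down, SEMA3F, SEMA6B and PLXND1, where 1.54% were called up and 4.74% down (6.28% in either direction). By adjusted p alone 1 was higher and 5 lower, where 16.1% of all were higher and 17.6% lower (33.7% in either direction).

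**Figure D5:**
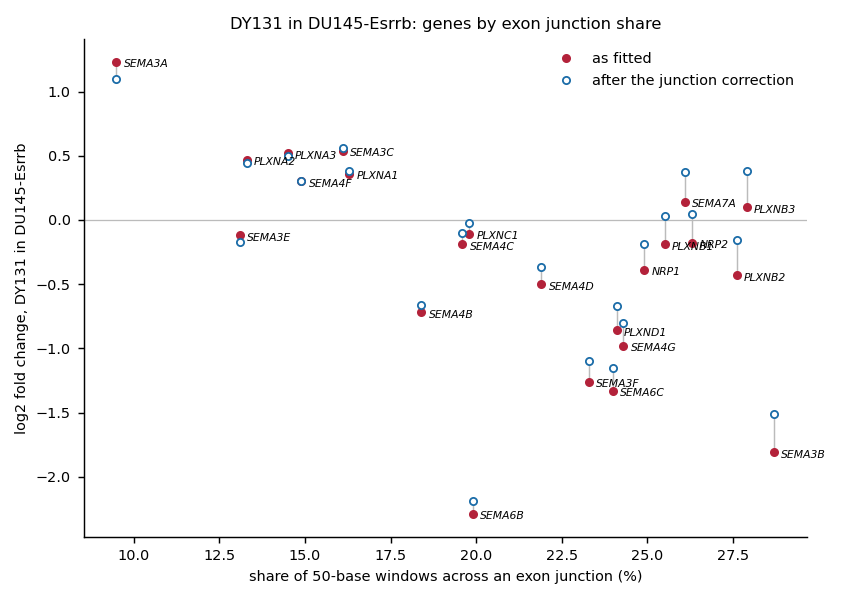
Log2 fold change of DY131 in DU145-Esrrb cells against the share of a transcript's windows that cross an exon junction (percent), for the 23 tested genes, as fitted (filled) and after the junction correction (open, joined by a line). SEMA3B, SEMA6C, SEMA3F and SEMA6B, called down, have shares of 28.7%, 24.0%, 23.3% and 19.9%, and SEMA3A, called up, one of 9.50%.

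In the 35 genes of plexin signalling inside the cell, all tested, 1 fell with Esrrb alone by adjusted p, and 8 rose and 5 fell with DY131 in DU145-pc3.1, all by less than the fold threshold, where 4.17% of all tested genes passed with Esrrb and 18.9% rose and 18.5% fell with DY131. DY131 in DU145-Esrrb cells called 1 up and 2 down, with 8 rising and 12 falling by adjusted p, where 12.0% of all tested genes were called and 29.2% rose and 29.5% fell. CRMP1, a collapsin response mediator that acts below SEMA3A, rose by 1.28 (SE 0.25, adjusted p = 4.80e-04). CDK5, a kinase in the same response, had a log2 fold change of -2.05 (SE 0.18, adjusted p = 2.19e-07), and RRAS, a GTPase on which plexins act, one of -1.01 (SE 0.10, adjusted p = 7.07e-07). Under DY131, DU145-Esrrb cells were lower than DU145-pc3.1 cells in CDK5 (-1.57), in DPYSL5 (-2.22), a relative of CRMP1, and in LIMK2 (-1.38), a kinase that acts on the actin regulator cofilin, and these were the 3 called there, where 8.21% of all tested genes were called. CDK5, DPYSL5 and LIMK2 were also called for the difference between the pools, as was FARP2 (-1.03), an exchange factor that binds A-type plexins, where 6.28% of all were called. DU145-Esrrb+DY131 against untreated control called CRMP1 up (1.04) and CDK5 (-1.92), DPYSL5 (-1.53) and LIMK2 (-1.13) down, with 9 rising and 12 falling by adjusted p, where 12.8% of all tested genes were called and 29.1% rose and 30.1% fell.

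Among 16 coreceptors and partners of plexins and neuropilins, 9 were tested and only L1CAM, an adhesion molecule that pairs with NRP1, was called, lower in DU145-Esrrb+DY131 than in DU145-pc3.1+DY131 by -1.80 (SE 0.23, adjusted p = 1.01e-05), with a difference of the DY131 effects of -1.32 (SE 0.32, adjusted p = 0.00564), where 8.21% and 6.28% of all tested genes were called. Of 5 VEGF family ligands of neuropilins, 4 were tested and VEGFC was called up in DU145-Esrrb+DY131 against untreated control, at 1.03 (SE 0.10, adjusted p = 3.17e-07). Of 7 proteases that cut semaphorins, 6 were tested and MMP14 was called up in that comparison, at 1.06 (SE 0.10, adjusted p = 3.23e-07), where 12.8% of all tested genes were called. The values given for the signalling genes, partners, VEGF family ligands and proteases carry no junction correction.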

How the data were processed

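RNA was sequenced from 8 libraries in 4 groups of 2. The authors aligned reads to hg18 and deposited a table of raw counts per gene (whole reads, not normalized). Strand and multiple mapping of reads in that count were not given in the sources used here. The table gives no coordinates, so positions come from GENCODE 29 on GRCh38. Library totals ranged from 7858743 to 11551690 counts. The 23391 genes were filtered to 13856 with at least 1 cpm in 2 libraries, and all 8 libraries were fitted in 1 model with TMM scaling by the quasi-likelihood F test of edgeR 4.0.16 in R 4.3.3, with Benjamini-Hochberg adjustment over all tested genes. Genes were called at a log2 fold change of 1 or more in size, if the adjusted p was also below 0.05. The script was tested on simulated data. DESeq2 1.42.0, edgeR's exact test, other scalings and filters, leaving out each library, a replicate block, and corrections for junction share and for length and GC were tried as alternatives.

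The genes and gene lists were chosen with earlier results of these data known. All 31 genes are accounted for, and per-library values are given for SEMA3F and each gene called in any comparison. Of the lists of signalling genes, partners, VEGF family ligands and proteases, only called genes are named. Of the marker lists, genes that were not called are named as well. Per-library values of SEMA3C, SEMA4B, PLXNB2 and NRP1 were added after their values were seen. The sources call the 2 libraries of a group biological replicates, and the p-values measure the spread between them. One column name stood over both DU145-Esrrb+DY131 libraries, which therefore have no replicate number. Whole-read counts of replicates differed by more than sampling noise in each group.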

Additional observations from a re-analysis of the deposited data

Results flagged for a closer look

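The effect of DY131 differed between DU145-Esrrb and DU145-pc3.1 cells, by the interaction term of the edgeR quasi-likelihood fit, for 6 of the 23 tested genes, where 33.7% of all tested genes passed the same adjusted p. The count depended on single libraries, with 2 higher and 9 lower without the second library of DU145-pc3.1+DY131, and 1 higher and 3 lower without the second library of DU145-pc3.1 or either of DU145-Esrrb+DY131. It was higher in DU145-Esrrb cells for SEMA3A (1.87 on the log2 scale). It was lower for SEMA6B (-1.37), SEMA3F (-1.26), PLXND1 (-1.15), PLXNB2 (-0.30) and SEMA4B (-0.27). With the correction for exon junction share the difference was 1.73 for SEMA3A, -1.28 for SEMA6B, -1.09 for SEMA3F and -0.96 for PLXND1, each still with an adjusted p under 0.05. For PLXNB2 it was -0.02 (adjusted p = 0.916) and for SEMA4B -0.21 (adjusted p = 0.0922).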

How the results depend on the processing

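The counts of called genes among the 23 depended most on the thresholds. With no fold change threshold, 10 genes passed for DY131 in DU145-pc3.1 cells and 15 for DY131 in DU145-Esrrb cells, where 37.4% and 58.7% of all tested genes passed. For Esrrb under DY131 8 passed and for DU145-Esrrb+DY131 against control 14, where 50.4% and 59.3% of all passed. With no filter on low counts, all 31 genes were tested, and 8 were called for DY131 in DU145-Esrrb cells and 6 for Esrrb under DY131, where 10.3% and 7.4% of all genes were; the added ones, SEMA3D, SEMA3G, SEMA4A and SEMA5B, had at most 17 reads in a library. No value that passed the adjusted p reversed its sign under the alternatives run, while values that did not pass changed sign in places, such as NRP2 with DY131 in DU145-Esrrb cells (-0.18, or 0.05 with the junction correction). PLXND1 was called with DY131 in DU145-Esrrb cells (-1.0) without the second library of DU145-Esrrb, SEMA4G (-1.04) when scaled by library size alone, and SEMA6B with DY131 in DU145-pc3.1 cells (-1.03) without the second library of DU145-pc3.1. With the length of the longest transcript, an alternative chosen after seeing the data, SEMA4B held 65.1% of the ligand level in DU145-pc3.1 in place of 61.6%, and SEMA4G, SEMA4F and SEMA4C changed order. The same replicate numbers in 3 groups name libraries only: their deviations correlated at 0.110, 0.0172 and -0.0670. In the 6 numbered libraries a replicate block gave SEMA3F a log2 fold change of 1.27 with Esrrb (adjusted p = 0.00178, against 5.90e-04 with no replicate block). The called counts stayed at 1 for Esrrb and 4 for DY131 in DU145-pc3.1 cells, where 0.480% and 3.94% of all tested genes were called. With 2 libraries a group and 0.226 to 1.81 cpm, SEMA3E and NRP2 are the least precise of the tested genes.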
